A study of Rattus norvegicus with 12 samples.

Results

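Elastic fibres and the enzymes and adhesive proteins that assemble them were followed through 10 genes in the lungs of MCT rats. The genes were taken by name from the deposited tables: Eln, Fbn1, Fbln5 and Ltbp4 for the fibre itself, Lox, Loxl1 and Loxl2 for crosslinking, and Tnc, Postn and Fn1 for the surrounding adhesive matrix. All 10 were found among the 16957 genes listed in all 3 tables, and all 10 passed the filter on low counts in each comparison. Lung RNA was measured in 12 rats, 3 in each of 4 groups, with 1 library a rat. Every rat was a 9-week-old animal by its label and belonged to the MCT model, in which monocrotaline injures the pulmonary vessels and pulmonary hypertension follows. By the methods the rats of the chronic infusions were male Sprague-Dawley rats given a single injection of MCT at 60 mg/kg, and drugs were delivered by osmotic minipump. The groups received AngII at 1 mg/kg/day, TRV023 at 10 µg/kg/min, losartan at 10 mg/kg/day or PBS, the vehicle. For histology and hemodynamics the pumps were placed 1 week after MCT for 2 weeks, and no time is given separately for the sequenced lungs. No group without MCT was analysed here, so all values are comparisons within the disease model.

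AngII is the natural agonist of the angiotensin II type 1 receptor and signals through both G proteins and β-arrestin. TRV023 is a peptide analog of AngII that favours β-arrestin, with sarcosine, lysine and alanine in place of the aspartate, isoleucine and C-terminal phenylalanine of AngII. Losartan blocks the receptor. The comparisons asked how each drug differed from vehicle in MCT lungs, and the doses of the drugs differed from each other.

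An elastic fibre has a core of crosslinked elastin on a scaffold of fibrillin microfibrils. Tropoelastin, the product of Eln, is guided onto the microfibrils by fibulin-5 and latent TGF-β binding protein 4, and lysyl oxidases then convert its lysines to reactive aldehydes that form the crosslinks. In the lung these fibres give alveoli and arteries their recoil, and tenascin-C, periostin and fibronectin are deposited around them in injured or remodelling tissue.

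The lung libraries held 16106337 to 20096877 counted reads each. The alveolar type 2 marker Sftpc stood at 5224 to 16391 FPKM in the 12 libraries, whereas the 4 measured cartilage markers summed to at most 2.95 FPKM. FPKM is the read count per kilobase of gene and scaled to the counted reads of its library, and the deposited values are given. For Lox these values are higher than its listed gene length of 2722 bases would give, and slightly so for Eln and Fn1. Replicates are named by group and animal number, as in Ang2_931 or Veh_923. The library Veh_963 stood apart from the others: its 9 smooth muscle markers summed to 2868 FPKM, against 722 to 1414 FPKM in the other 11 libraries, and it had the highest values of the fibroblast markers Dcn (214 FPKM) and Lum (72.7 FPKM). Mitochondrially encoded genes took 9.62% to 12.3% of counts in AngII lungs, 4.36% to 7.07% in TRV023 lungs, 5.11% to 10.02% in losartan lungs and 5.65% to 7.55% in vehicle lungs. The count-weighted mean gene length was 2310 to 2471 bases in AngII lungs, against 2573 to 2602 bases in vehicle lungs, without overlap. It was 2542 to 2594 bases in TRV023 lungs and 2430 to 2695 bases in losartan lungs. Los_964 and Los_965, at 2430 and 2469 bases, lay inside the AngII range. Mitochondrially encoded genes are counted in this mean. Veh_963, Los_964 and Los_965 carry animal numbers in the 960s, while the other 9 animals carry lower numbers. The labels give these numbers only as names. In bulk lung, fewer cells of a type and less RNA per cell cannot be told apart.

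RefSeq promoter sequences of build GRCr8 were matched by symbol for 6 of the 10 genes, Fbn1, Fbln5, Ltbp4, Loxl1, Tnc and Postn. The 250 bases before the start are shown for Tnc, the most variable of the 10 genes over the libraries, and for Postn, among the steadier ones. These are also the 2 of the 6 windows that hold the letters TATAAA, which are in capitals. Tnc lies at chr5:82476132-82476381 on the minus strand and Postn at chr2:140677811-140678060 on the plus strand.
Tnc: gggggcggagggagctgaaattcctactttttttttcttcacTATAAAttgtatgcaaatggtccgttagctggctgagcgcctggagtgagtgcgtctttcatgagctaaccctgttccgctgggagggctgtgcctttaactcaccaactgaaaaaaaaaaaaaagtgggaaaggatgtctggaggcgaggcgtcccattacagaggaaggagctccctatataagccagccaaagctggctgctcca
Postn: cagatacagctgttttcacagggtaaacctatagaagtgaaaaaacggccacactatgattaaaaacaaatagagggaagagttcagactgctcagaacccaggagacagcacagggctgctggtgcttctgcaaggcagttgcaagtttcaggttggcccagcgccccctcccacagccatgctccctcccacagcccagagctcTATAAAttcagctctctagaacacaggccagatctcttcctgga
The TATAAA begins at position -208 from the start of Tnc and at -44 from the start of Postn. Only these exact letters were searched, so the similar tatataa nearer the start of Tnc was not counted. On the same strand, 8.06% of the 33469 RefSeq rat promoter windows of this length hold these letters. The GC box GGGCGG was found on either strand in Ltbp4, Tnc and Fbln5, against 30.5% of all windows. CCAAT was found in Ltbp4 (34.0% of all windows) and the TEAD motif GGAATG in Loxl1 (12.1%). None of the 6 windows held the AP-1 motif TGANTCA, the SMAD palindrome GTCTAGAC or a CArG box, which occur in 6.34%, 0.173% and 1.497% of all windows. Matches of letters are descriptions only.

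Eln, which encodes tropoelastin, was the most abundant of the 10 genes with a mean of 979 FPKM over the 12 libraries, rank 78 of the 16957 genes. Fn1 followed with 437 FPKM and Postn with 293 FPKM. Loxl1 averaged 133 FPKM, Ltbp4 112 FPKM and Fbln5 69.6 FPKM. Lox averaged 40.1 FPKM, Fbn1 32.0 FPKM, Tnc 28.3 FPKM and Loxl2 12.6 FPKM. The place of Lox above Fbn1 depends on the gene length used for its FPKM. Of the 9 neighbouring pairs in this order, only Eln over Fn1 and Postn over Loxl1 had ranges over the 12 libraries that did not overlap. Tnc was above Loxl2 in each library although their ranges overlapped, and Fbn1 was above Tnc in 8 of 12 libraries.

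**Figure D1:**
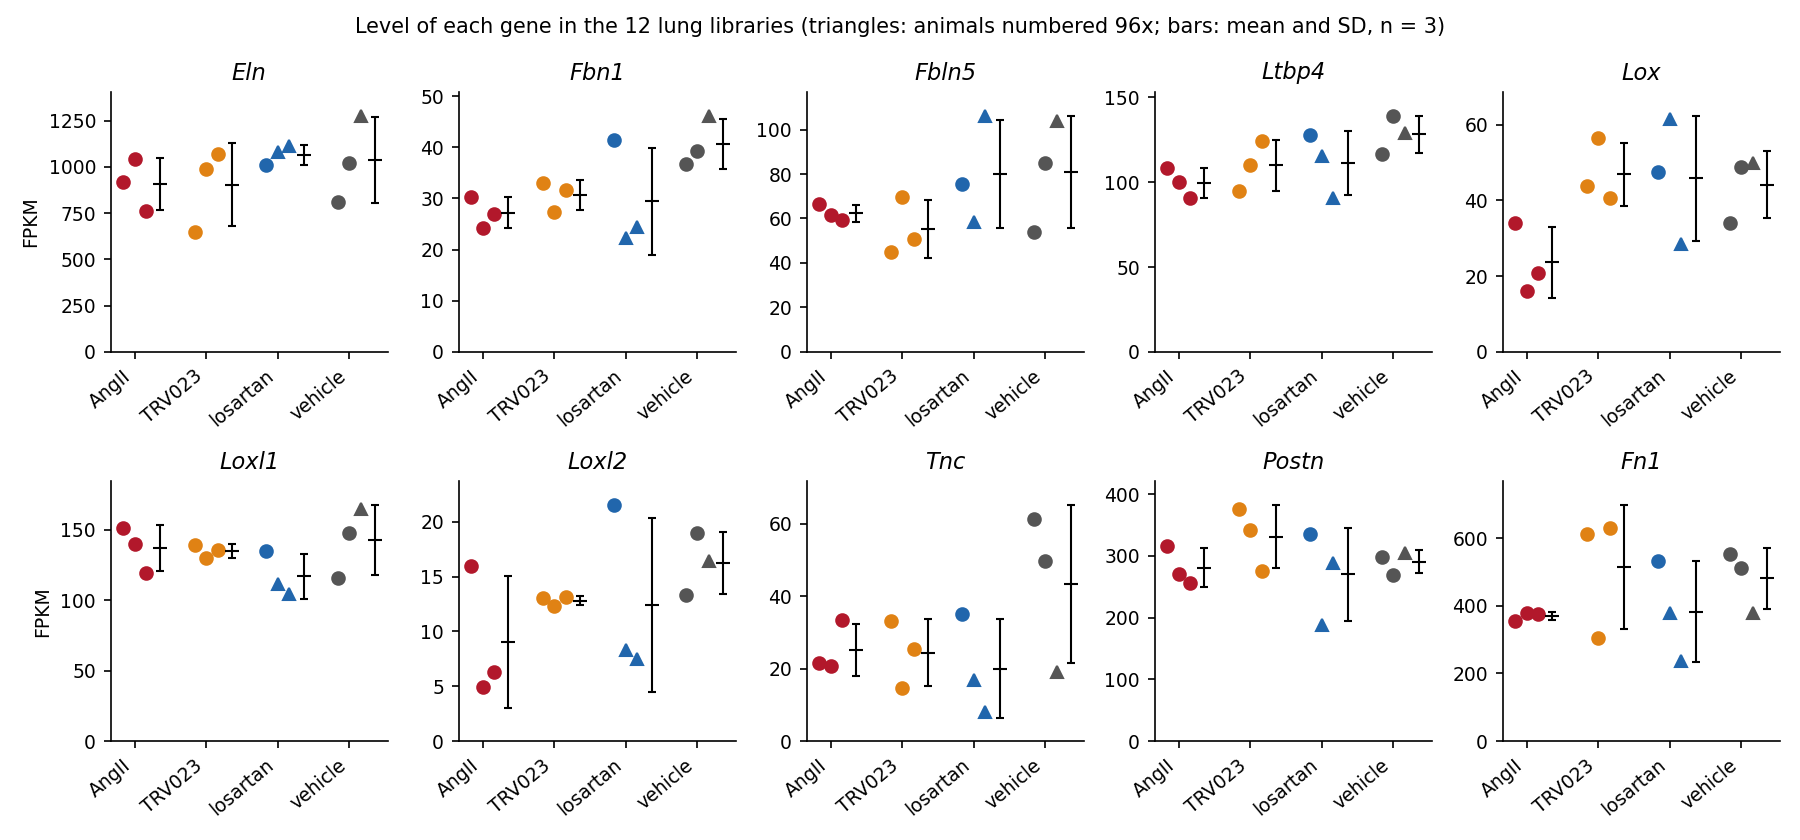
Levels of the 10 genes in FPKM (vertical axis, from 0) by group (horizontal axis), a point for each rat, with triangles for the animals numbered in the 960s and bars for the mean and SD of 3 rats. Fbn1 in AngII and TRV023 lungs lies at or below 33.0 FPKM, under the lowest vehicle lung at 36.7 FPKM, and Tnc ranges from 8.16 to 61.3 FPKM.

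The 10 genes together took 0.795% to 0.900% of counted reads in AngII lungs, 0.858% to 1.14% in TRV023 lungs, 0.807% to 1.09% in losartan lungs and 1.01% to 1.07% in vehicle lungs. The AngII range thus lay wholly below the vehicle range, with the mitochondrial share above it in the same lungs. These shares are of all counted reads, mitochondrial ones included. Eln and Fn1 gave most of the reads, with 36689 to 96307 a library each, against at most 21805 for any other of the 10. With AngII, both Eln and Fn1 overlapped vehicle after TMM normalisation. None of the 10 genes passed an adjusted p of 0.05 against vehicle with any drug in edgeR, with changes normalised by TMM over all genes. With AngII, 8 of 10 log2 fold changes were below 0 and their median was -0.24, against 52.6% and -0.02 over the 15059 genes tested. With TRV023 it was 7 of 10 with a median of -0.21, against 50.3% and 0.00 over 15193 genes. With losartan it was again 7 of 10 with a median of -0.20, against 48.7% and 0.01 over 15156 genes. The 3 comparisons share the same vehicle lungs. Without Veh_963, 7 of 10 values were below 0 with each drug, and the medians were -0.28 with AngII, -0.12 with TRV023 and -0.14 with losartan. Few genes of any kind were called: 0.0133% of all genes with AngII, 0.00658% with TRV023 and 0% with losartan. At an unadjusted edgeR p under 0.05, 2 of the 10 genes were lower with AngII (Fbn1 and Lox), against 5.39% of all genes. One such gene was found with TRV023 (Fbn1), against 2.96%, and none of the 10 with losartan, against 0.963%. DESeq2, which called 209, 114 and 7 genes with AngII, TRV023 and losartan, also called 0 of the 10.

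Fbn1 had nearly the same difference from vehicle in each comparison. Fibrillin-1, its product, is the main structural protein of the microfibrils (chromosome 3, 124095126 to 124289500, minus strand, in the coordinates of the deposited tables). Its level was 30.4, 24.3 and 27.0 FPKM in AngII lungs, 33.0, 27.3 and 31.6 FPKM in TRV023 lungs, 41.4, 22.3 and 24.5 FPKM in losartan lungs and 36.7, 39.2 and 46.2 FPKM in vehicle lungs. All AngII and TRV023 lungs were below all vehicle lungs, while Los_925 lay among the vehicle values. The log2 fold change was -0.45 with AngII (SE 0.14, 95% interval -0.76 to -0.14, edgeR adjusted p = 0.356). With TRV023 it was -0.41 (SE 0.15, -0.76 to -0.06, edgeR adjusted p = 0.815) and with losartan -0.44 (SE 0.21, -0.93 to 0.05, edgeR adjusted p = 1). Groups that do not overlap, with the drug lower, were found for 9.17% of all genes with AngII and 5.56% with TRV023, and for 2.99% with losartan, where none of the 10 genes was among them. Fbn1 has the longest gene model of the 10, at 8942 bases, and with each library's trend on gene length removed the AngII value was -0.25 (edgeR adjusted p = 0.526). Without Veh_963 the values were -0.35 with AngII and -0.30 with TRV023 (edgeR adjusted p = 0.496 and 0.682). The losartan value was -0.70 without Los_925 (adjusted p = 0.866) and 0.07 with the 3 animals numbered in the 960s left out, when Los_925 is the only losartan lung and is assumed to vary like the vehicle lungs.

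Eln itself (chromosome 12, 26978753 to 27022484, plus strand) differed from vehicle by less than its spread in all 3 comparisons. AngII lungs had 918.5, 1044 and 760 FPKM, TRV023 lungs 648, 991 and 1073 FPKM, losartan lungs 1008, 1079 and 1112 FPKM and vehicle lungs 811, 1022 and 1278 FPKM. The vehicle range covered all values of the losartan lungs and all but the lowest of the AngII and TRV023 lungs. Log2 fold changes were -0.06 with AngII (95% interval -0.54 to 0.43), -0.20 with TRV023 (-0.78 to 0.37) and 0.10 with losartan (-0.44 to 0.63). Changes of Eln beyond a 1.34-fold increase with AngII, 1.29-fold with TRV023 and 1.55-fold with losartan lie outside these intervals, as do levels below 0.69, 0.58 and 0.74 of vehicle. The TRV023 value was -0.02 without Veh_963 and also without Trv_917, and -0.35 without Veh_923 and also without Trv_930. With AngII it was 0.12 without Veh_963 and -0.21 without Veh_923, and with losartan 0.28 and -0.06 without the same lungs.

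Fbln5 encodes fibulin-5, which tethers tropoelastin to microfibrils and cells (chromosome 6, 134856700 to 134935853, minus strand). Its levels were 66.3, 61.4 and 59.1 FPKM in AngII lungs, 44.8, 69.8 and 50.6 FPKM in TRV023 lungs, 75.5, 58.4 and 106 FPKM in losartan lungs and 53.9, 85.0 and 104 FPKM in vehicle lungs. The AngII lungs were tightly grouped inside the wide vehicle range, and 2 of the 3 TRV023 lungs were below the lowest vehicle lung. The log2 fold change was -0.25 with AngII (95% interval -0.74 to 0.25), -0.56 with TRV023 (-1.14 to 0.02, edgeR adjusted p = 0.909) and 0.03 with losartan (-0.63 to 0.68), which was -0.24 without Los_965 and 0.25 without Veh_963. Without Veh_963 the AngII value was -0.02 and the TRV023 value -0.34, and without Veh_923 the AngII value was -0.47.

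Ltbp4, whose product binds fibulin-5 and latent TGF-β and guides elastin assembly in the lung (chromosome 1, 85328915 to 85361198, minus strand), was among the least variable. AngII lungs had 108, 100.1 and 90.7 FPKM, TRV023 lungs 94.7, 110.4 and 125 FPKM, losartan lungs 128, 115 and 90.8 FPKM and vehicle lungs 117, 139 and 129 FPKM. All AngII lungs lay below all vehicle lungs, but the log2 fold change of -0.23 had an interval of -0.53 to 0.07 (edgeR adjusted p = 0.497). It was -0.08 with the gene length trend removed, and -0.36 with library totals in place of TMM, a scaling that moved all genes by a median of -0.13 in this comparison. With TRV023 the value was -0.22 (-0.57 to 0.12) and with losartan -0.15 (-0.56 to 0.25). The TRV023 value was -0.14 without Trv_917, and the losartan value was -0.03 without Los_965, -0.25 without Los_964 and -0.09 without Veh_924.

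**Figure D2:**
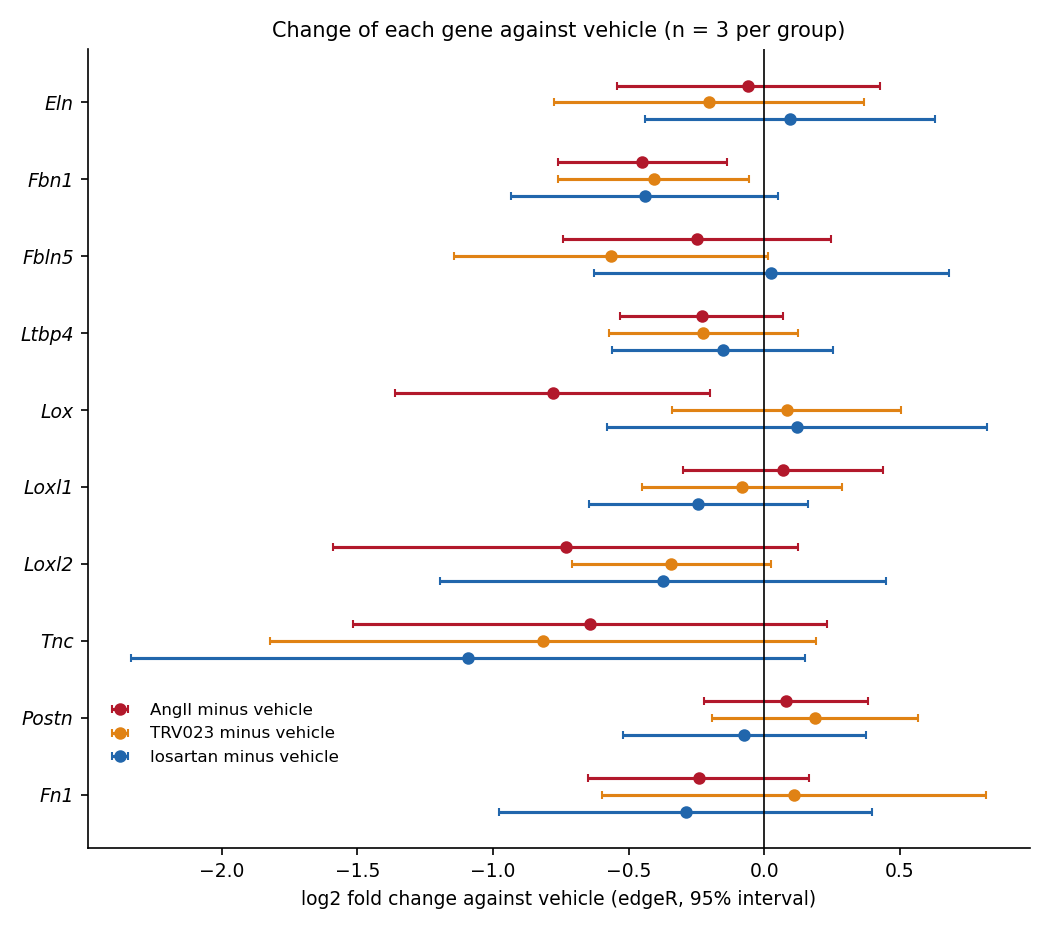
Log2 fold change of each gene (rows) for AngII, TRV023 and losartan against vehicle, with points for the edgeR estimates and bars for 95% intervals (n = 3 per group). The interval lies wholly below 0 for Fbn1 with AngII and TRV023 and for Lox with AngII, and none of the 30 values passed the adjusted threshold.

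Among the 3 lysyl oxidases of the 10 genes, Lox had the largest difference from vehicle with AngII. Lysyl oxidase is the founding enzyme of its family and crosslinks both elastin and collagen (chromosome 18, 46715872 to 46791367, minus strand). Lox was at 34.2, 16.1 and 20.8 FPKM in AngII lungs, 43.8, 56.4 and 40.6 FPKM in TRV023 lungs, 47.4, 61.6 and 28.6 FPKM in losartan lungs and 33.9, 48.7 and 49.8 FPKM in vehicle lungs. Ang2_931 and Ang2_933 were the lowest of all 12 libraries, and Ang2_922 was just above the lowest vehicle lung. The log2 fold change with AngII was -0.78 (SE 0.25, 95% interval -1.36 to -0.20, edgeR adjusted p = 0.372), the largest of the 10 genes in that comparison. TRV023 gave 0.08 (-0.34 to 0.51) and losartan 0.12 (-0.58 to 0.82), which was -0.24 without Los_964 and 0.37 without Los_965. Over the alternatives run for AngII the value ranged from -1.08 to -0.58 and the adjusted p from 0.0975 to 0.728. A gene on the other strand, Zfp474, overlaps the Lox gene model and had 12 to 75 reads a library, against 637 to 2394 for Lox. Reads of the strands cannot be told apart because the counting setting is not given.

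Between the drugs, whose doses differed, Lox was also the gene with the largest difference. In the fit of all 12 libraries it was 0.86 log2 units below TRV023 in AngII lungs (log2 fold change -0.86, SE 0.30, interval -1.51 to -0.21, edgeR adjusted p = 0.332). All AngII lungs were below all TRV023 lungs, as for 7.96% of all genes. AngII against losartan gave -0.89 (-1.54 to -0.23, edgeR adjusted p = 0.455), with Los_965 inside the AngII range, and -0.53 without Los_964. TRV023 against losartan gave -0.03 (-0.68 to 0.62). The test of any difference among the 4 groups called 0 of the 10 genes, against 0.0192% of all genes, and gave an edgeR adjusted p of 0.612 for Lox and at least 0.680 for the other members. Of the 30 differences between drugs for the 10 genes, 0 passed the adjusted threshold, as for 0% of all genes in each of the 3 pairs. At an unadjusted edgeR p under 0.05, Lox was lower in AngII lungs than in TRV023 and losartan lungs (as for 5.43% and 4.49% of all genes), and Fbln5 was lower in TRV023 lungs than in losartan lungs (as for 2.27%; log2 fold change -0.58, -1.12 to -0.05, edgeR adjusted p = 0.998). Leaving out each library in turn gave -0.76 to -0.32 for this Fbln5 difference, the smallest without Los_965. For Eln the intervals between drugs were -0.34 to 0.64 for AngII against TRV023, -0.63 to 0.35 for AngII against losartan and -0.78 to 0.20 for TRV023 against losartan.

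Loxl1, the lysyl oxidase needed for renewal of elastic fibres in adult mice, held its level more closely (chromosome 8, 62843791 to 62868157, minus strand). It had 152, 140.1 and 119 FPKM in AngII lungs, 139.5, 129.8 and 136 FPKM in TRV023 lungs, 135, 112 and 104.5 FPKM in losartan lungs and 116, 148 and 165 FPKM in vehicle lungs. The vehicle range covered all AngII and TRV023 lungs. Its log2 fold change was 0.07 with AngII (95% interval -0.30 to 0.44), -0.08 with TRV023 (-0.45 to 0.29) and -0.24 with losartan (-0.65 to 0.16). The losartan value was -0.12 without Veh_963 and -0.37 without Veh_923. AngII against losartan gave 0.33 (0.00 to 0.65, edgeR adjusted p = 0.545); these groups did not overlap after TMM normalisation, as for 6.45% of all genes in that direction, but did in FPKM.

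Loxl2 encodes the family member known for crosslinking basement membrane collagen, and it was the least abundant of the 10 (chromosome 15, 55059673 to 55092976, plus strand). Levels were 15.96, 4.91 and 6.32 FPKM in AngII lungs, 13.0, 12.3 and 13.1 FPKM in TRV023 lungs, 21.5, 8.27 and 7.45 FPKM in losartan lungs and 13.3, 18.9 and 16.4 FPKM in vehicle lungs. In the AngII and losartan groups a single rat, Ang2_922 or Los_925, was within or above the vehicle range and the other rats were below it. The 3 TRV023 lungs were below all vehicle lungs in FPKM but overlapped them after TMM normalisation. The log2 fold change with AngII was -0.73 (95% interval -1.59 to 0.13, edgeR adjusted p = 0.470), with a value of -1.35 without Ang2_922 (adjusted p = 0.0975) and -0.45 without Ang2_931. With TRV023 it was -0.34 (-0.71 to 0.02, edgeR adjusted p = 0.922; -0.21 without Veh_924) and with losartan -0.37 (-1.19 to 0.45). The losartan value was -0.94 without Los_925, -0.12 without Los_965 and 0.36 without the animals numbered in the 960s.

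Tnc varied most. Tenascin-C is a glycoprotein of injured and remodelling tissue that is sparse in resting adult lung (chromosome 5, 83891006 to 83950462, minus strand). Its levels were 21.5, 20.7 and 33.6 FPKM in AngII lungs, 33.2, 14.6 and 25.6 FPKM in TRV023 lungs, 35.1, 16.9 and 8.16 FPKM in losartan lungs and 61.3, 49.9 and 19.1 FPKM in vehicle lungs. Veh_923 and Veh_924 were the highest of all libraries, whereas Veh_963 was below 8 of the other 11. The log2 fold change was -0.64 with AngII (95% interval -1.51 to 0.23), -0.82 with TRV023 (-1.82 to 0.19) and -1.09 with losartan (-2.33 to 0.15), with edgeR adjusted p of 0.512, 0.957 and 1. Without Veh_963 these values were -0.997 (edgeR adjusted p = 0.392), -1.17 (edgeR adjusted p = 0.388) and -1.45 (edgeR adjusted p = 1). Without Veh_923 the AngII value was -0.32 and the TRV023 value -0.48. The TRV023 value was -0.54 without Trv_918, and the losartan value was -0.72 without Los_965 and -1.67 without Los_925.

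Among vehicle and losartan lungs, Tnc followed the animal numbers as well. It was 19.1, 16.9 and 8.16 FPKM in Veh_963, Los_964 and Los_965, against 61.3, 49.9 and 35.1 FPKM in Veh_923, Veh_924 and Los_925. Within each number series the losartan lungs were below the vehicle lungs, and with the 960s left out the losartan value was -0.72 (Los_925 alone against 2 vehicle lungs). A term for the number series in the fit of all 12 libraries gave a Tnc difference of -1.42 for the 960s minus the other animals (95% interval -2.23 to -0.62, edgeR adjusted p = 0.166); this term called 0 of the 10 genes and 0.0188% of all genes. Fn1 was likewise lower in the 960s, at 236 to 379 FPKM against 510 to 553 FPKM, and Eln higher, at 1079 to 1278 FPKM against 811 to 1022 FPKM. The other 7 genes overlapped between the series. Over all genes, 11.1% were lower without overlap in these 3 lungs and 9.68% higher, against 2 and 1 of the 10. The AngII and TRV023 groups hold no animal numbered in the 960s, so the series could be compared only in the vehicle and losartan groups.

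Postn encodes periostin, a matricellular protein that binds collagen and helps to activate lysyl oxidase, and its lowest and highest libraries differed 2.01-fold (chromosome 2, 163331262 to 163362444, plus strand). AngII lungs had 316, 270.1 and 256 FPKM, TRV023 lungs 376, 342 and 275 FPKM, losartan lungs 335, 188 and 288 FPKM and vehicle lungs 298, 269 and 305 FPKM. The lowest lung was Los_964 and the highest Trv_917. Log2 fold changes were 0.08 with AngII (95% interval -0.22 to 0.38), 0.19 with TRV023 (-0.19 to 0.57) and -0.07 with losartan (-0.52 to 0.38). The TRV023 value was 0.07 without Trv_917 and 0.30 without Trv_930, and the losartan value was -0.20 without Los_925 and 0.09 without Los_964.

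Fn1 encodes fibronectin, on which microfibrils are first laid down (chromosome 9, 78674439 to 78743407, minus strand). It was at 356, 378 and 376 FPKM in AngII lungs, 613, 304 and 629 FPKM in TRV023 lungs, 534, 378 and 236 FPKM in losartan lungs and 553, 510 and 379 FPKM in vehicle lungs. The AngII lungs were nearly level with each other and just below the lowest vehicle lung, Veh_963, in FPKM, but overlapped vehicle after TMM normalisation, whereas the TRV023 lungs spanned the vehicle range on both sides. The log2 fold change was -0.24 with AngII (95% interval -0.65 to 0.17), 0.11 with TRV023 (-0.60 to 0.82) and -0.29 with losartan (-0.98 to 0.40). The AngII value was -0.04 with the gene length trend removed, -0.38 without Veh_963 (edgeR adjusted p = 0.499) and -0.14 without Veh_923. The losartan value was -0.53 without Los_925, -0.04 without Los_965 and -0.18 without Veh_923, and the TRV023 value ran from -0.06 without Trv_930 to 0.39 without Trv_918. A second gene model, AABR06061012.1, overlaps Fn1 on the other strand and had at most 14 reads in a library.

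**Figure D3:**
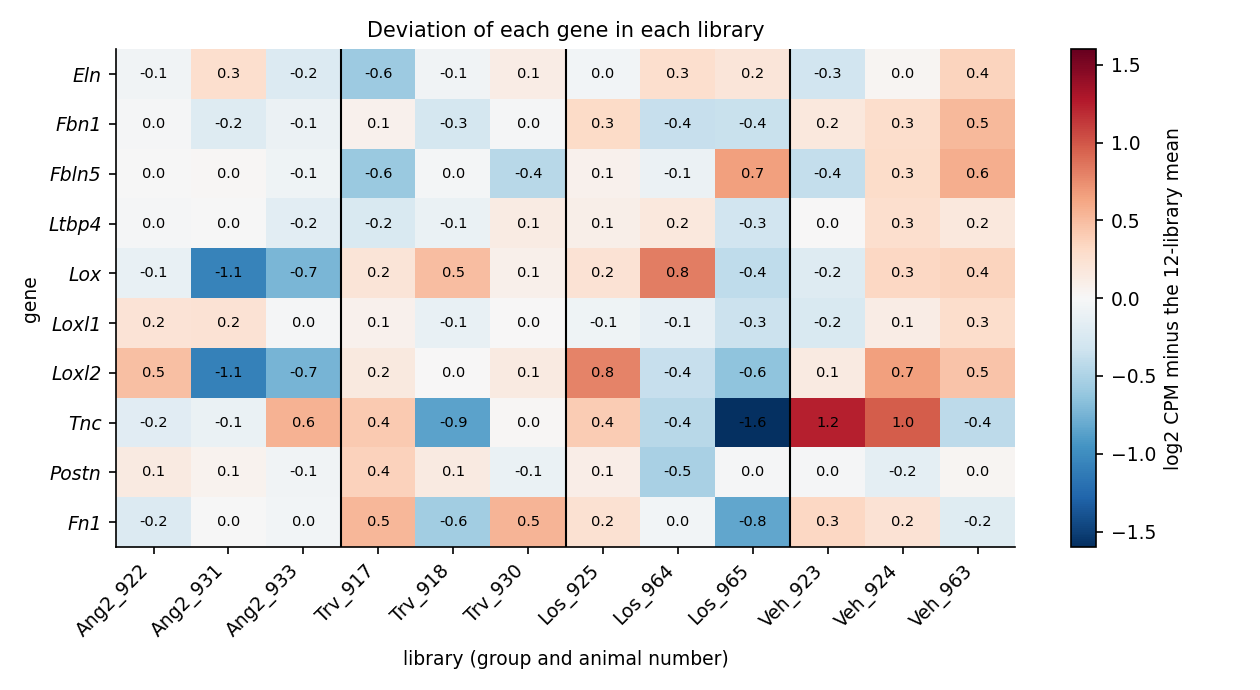
Log2 CPM of each gene (rows) in each library (columns, by group and animal number) minus its mean over the 12 libraries, with the value printed in each cell. Tnc spans the widest range, from Los_965 to Veh_923, and Lox and Loxl2 are lowest in Ang2_931 and Ang2_933.

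The spread between libraries of the same group set what could be seen. The SD of log2 CPM within groups was 0.77 for Tnc, 0.58 for Loxl2, 0.45 for Fn1, 0.44 for Lox and 0.35 for Fbln5, all above the median of 0.32 over 15662 genes. It was 0.29 for Eln, 0.24 for Fbn1, 0.21 for Postn, 0.18 for Ltbp4 and 0.17 for Loxl1. From the lowest to the highest of the 12 libraries, Tnc differed 7.51-fold, Loxl2 4.38-fold, Lox 3.83-fold and Fn1 2.66-fold, whereas Loxl1 differed 1.58-fold and Ltbp4 1.53-fold.

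The genes did not vary as a single block. Of the 45 pairs, 31 had a Pearson r above 0 over the 12 libraries, with a median r of 0.19 and a range of -0.72 to 0.80. By permutation 5 pairs had p under 0.05 and 0 passed after adjustment over the 45. The closest pair was Tnc and Fn1, with r = 0.80 (permutation p = 0.00181, adjusted p = 0.0814) and Spearman rho = 0.71 (permutation p = 0.0124, adjusted p = 0.280). Its r was 0.87 with the group means removed, 0.66 without the 2 libraries farthest from the Tnc median and 0.64 in the 9 animals numbered below the 960s. Fbn1 and Loxl2 had r = 0.74 (permutation p = 0.00712, adjusted p = 0.138; rho = 0.76, permutation p = 0.00575, adjusted p = 0.259), which was 0.76 without the 2 farthest libraries. Fbln5 ran against Fn1, with r = -0.72 (permutation p = 0.00919, adjusted p = 0.138; rho = -0.61, permutation p = 0.0395, adjusted p = 0.451) and -0.55 without the 2 farthest. Eln and Fbln5, which meet in the same fibre, had r = 0.67 (permutation p = 0.0184, adjusted p = 0.207; rho = 0.55, permutation p = 0.0725, adjusted p = 0.451), and 0.36 without the 2 farthest libraries. Lox and Loxl2 had r = 0.62 (permutation p = 0.0301, adjusted p = 0.271; rho = 0.47, permutation p = 0.125, adjusted p = 0.468), which fell to 0.10 without Ang2_931 and Ang2_933 and thus rested on those lungs.

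Lox also ran against the mitochondrial share of the library. Of the 10 genes, its r was the strongest at -0.80 (permutation p = 0.0018, adjusted over 10 p = 0.018), with rho = -0.64 (permutation p = 0.0284, adjusted p = 0.284). The permutations took no account of group, so these p do not test the relation within groups. With group means removed r was -0.58. It was -0.51 without the 2 lungs farthest from the median share, Ang2_931 and Ang2_933, so much of it rested on those AngII lungs. Loxl2 had r = -0.70 (permutation p = 0.0118, adjusted p = 0.0591; rho = -0.52, permutation p = 0.0889, adjusted p = 0.444) and -0.34 without them. AngII and the higher mitochondrial share cannot be told apart in those lungs.

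**Figure D4:**
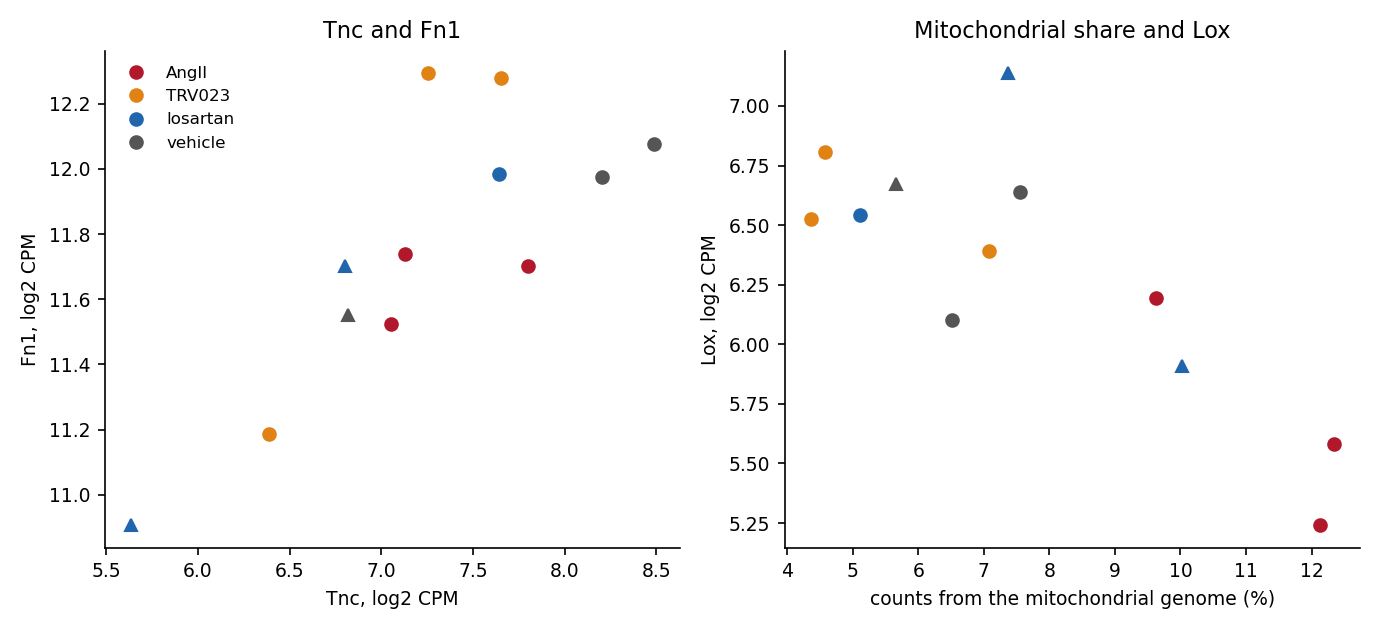
Left, log2 CPM of Tnc (horizontal) and Fn1 (vertical); right, mitochondrial percent of counts (horizontal) and log2 CPM of Lox (vertical), a point for each of the 12 libraries, coloured by group, with triangles for the animals numbered in the 960s. Tnc and Fn1 run together (r = 0.80), and the 2 lowest Lox values are the AngII lungs with the highest mitochondrial shares (r = -0.80 over all 12).

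Over the 12 libraries and 13716 genes with a mean of at least 1 FPKM, the genes most like Eln were Prr15 (r = 0.89), Foxo4 (r = 0.87) and Ttc23 (r = 0.85). Those most like Lox were Rasgef1b (r = 0.95), RGD1562218 (r = 0.93) and Arhgap21 (r = 0.93), and those most like Postn were Ufsp2 (r = 0.89), RT1-CE4 (r = 0.87) and LOC100361056 (r = 0.86). These r are the highest of 13716 and describe likeness over libraries that share depth and tissue mix.

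Genes with neighbouring roles were read from 5 further lists, and 0 genes of any of them passed the adjusted threshold with any drug. Other elastic fibre and microfibril genes had a median log2 fold change of -0.14 with AngII (12 of 18 below 0), -0.13 with TRV023 (12 of 18) and -0.25 with losartan (16 of 17). With AngII, Efemp1, a fibulin-like protein, was at 55.5 to 59.2 FPKM against 82.8 to 97.7 FPKM in vehicle (-0.50, edgeR adjusted p = 0.295). Mfap2, a microfibril-associated glycoprotein, was 0.42 above vehicle in AngII lungs and had a value of -0.56 in losartan lungs (edgeR adjusted p = 0.414 and 1). Fbln1, or fibulin-1, had -0.67 with TRV023 (58.5 to 82.2 FPKM against 99.2 to 112 FPKM, edgeR adjusted p = 0.499). Versican (Vcan) had -0.99 with losartan (edgeR adjusted p = 1).

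Other crosslinking and collagen-modifying enzymes had medians of -0.20 with AngII (12 of 17 below 0), -0.06 with TRV023 (11 of 17) and -0.08 with losartan (13 of 17). Atp7a, the copper transporter that loads lysyl oxidases, was at 0.837 to 3.49 FPKM in AngII lungs against 4.97 FPKM or more in vehicle lungs (-1.25, edgeR adjusted p = 0.374). P4ha1, a collagen prolyl hydroxylase subunit, had -0.43 with AngII (edgeR adjusted p = 0.411).

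Other matricellular and adhesive glycoproteins had medians of -0.21 with AngII (13 of 22 below 0), -0.12 with TRV023 (13 of 22) and -0.15 with losartan (14 of 23). Spp1, or osteopontin, was 0.47 above vehicle with AngII (286 to 394 FPKM against 230 to 284 FPKM, edgeR adjusted p = 0.380) and had -0.98 with losartan (50.9 to 179 FPKM, edgeR adjusted p = 1). Vitronectin (Vtn) had 0.62 with AngII (edgeR adjusted p = 0.347). With TRV023, Nid2, a basement membrane nidogen, had -0.48 and Ecm1, extracellular matrix protein 1, had 0.52 (edgeR adjusted p = 0.699 and 0.778). Tnn, tenascin-N, had -3.30 with losartan at very low levels, 0.0158 to 0.109 FPKM against 0.519 to 1.02 FPKM in vehicle (edgeR adjusted p = 1).

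Integrins, syndecans and their partners, the cell surface receptors of these proteins, had medians of -0.18 with AngII (14 of 16 below 0), -0.16 with TRV023 (14 of 16) and -0.04 with losartan (9 of 16). The fibronectin receptor subunit Itga5 had -0.50 and the integrin activator Fermt2 had -0.31 with AngII (edgeR adjusted p = 0.389 and 0.410). Itgb6, the epithelial integrin subunit that activates TGF-β, had -0.51 with TRV023 (edgeR adjusted p = 0.849).

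Elastases and their inhibitors, the enzymes that break down elastic fibres and their brakes, had medians of 0.33 with AngII (12 of 16 above 0), 0.38 with TRV023 (12 of 16) and 0.00 with losartan (8 of 16). Cathepsin S (Ctss) had 0.51 with AngII, and Mmp9 and cathepsin K (Ctsk), both able to cleave elastin, had 1.27 and 0.81 with TRV023 (edgeR adjusted p = 0.391, 0.699 and 0.720). Timp3, a metalloproteinase inhibitor held in the matrix, was at 167 to 244 FPKM in AngII lungs against 371 to 467 FPKM in vehicle lungs (-0.78, edgeR adjusted p = 0.295). Neutrophil markers had a median of 0.61 with AngII, 1.16 with TRV023 and 0.79 with losartan, with sums of 204 to 448, 397 to 749 and 94.7 to 714 FPKM in these groups against 150 to 332 FPKM in vehicle. The elastase and neutrophil lists share the gene Elane. The part of neutrophils in the elastase values was not tested.

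Markers of fibroblasts and smooth muscle, which make these proteins, had medians below 0 with each drug, with Veh_963 among the vehicle lungs. Medians without Veh_963 were not taken for the markers. Fibroblast markers summed to 1949 to 2188 FPKM in AngII lungs, 2047 to 2327 FPKM in TRV023 lungs, 1634 to 2323 FPKM in losartan lungs and 2337 to 2865 FPKM in vehicle lungs, with medians of -0.16, -0.22 and -0.26 over 13 markers. This list includes collagen genes, and its highest sum is that of Veh_963. In Veh_923 and Veh_924 Dcn was at 37.2 and 38.8 FPKM. It was at 29.9 to 55.9 FPKM with AngII, 52.6 to 114 with TRV023 and 31.9 to 81.6 with losartan. Lum was at 18.7 and 21.4 FPKM, against 20.8 to 21.8, 19.1 to 33.0 and 20.2 to 21.3. Pdgfra was at 21.6 and 23.8 FPKM, against 14.3 to 22.5, 18.5 to 27.8 and 17.8 to 28.7. Smooth muscle markers had medians of -0.77, -0.74 and -0.34 over 9 markers, with sums of 722 to 1138 FPKM in AngII lungs, 869 to 1380 FPKM in TRV023 lungs and 912 to 1414 FPKM in losartan lungs against 796 to 2868 FPKM in vehicle lungs. The upper vehicle sum is that of Veh_963, and Veh_923 and Veh_924 had 796 and 1170 FPKM. Mesothelial markers had medians of -0.38, -0.79 and -0.32. Endothelial markers, by contrast, had 0.04, -0.02 and 0.34, alveolar type 1 markers -0.14, 0.20 and 0.34, and alveolar type 2 markers -0.03, -0.41 and 0.27 with AngII, TRV023 and losartan. Macrophage markers had 0.16, 0.18 and -0.24, ciliated and club cell markers -0.89, 0.37 and -0.52, and cardiac muscle markers -0.63, -0.26 and -0.43, with the defining gene Myh6 at or below 0.105 FPKM. The cardiac markers summed to 299 FPKM in Veh_963, against 19.5 to 54.3 FPKM in the other 11 libraries. The first 3 measured markers did not share this rise. In Veh_963 Myh6 was at 0, Tnnt2 at 5.16 and Tnni3 at 8.49 FPKM. Over the 12 libraries Tnnt2 ran from 3.55 to 13.5 FPKM and Tnni3 from 1.87 to 11.8 FPKM. None of the marker genes passed the adjusted threshold. The part of cell make-up in the values of the 10 genes was not tested.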

How the data were processed

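Lung RNA of 12 MCT rats was compared, 3 each given AngII, TRV023, losartan or PBS, with groups taken from the labels and doses from the methods. The authors had total RNA from about 10 mg of lung sequenced by a company and aligned to the rat genome; the aligner, counting tool and strand setting, build and annotation were not given in the sources used here. Gene coordinates are those of the deposited tables. Read counts were deposited per gene as whole numbers. The deposited FPKM values were made by the authors from counts, a gene length and counted reads. For Lox, Eln and Fn1 that length was not the listed one. The tables also hold the authors' own fold changes and p-values, and 18 columns of scaled per-sample values; none was used.

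Each drug was tested against vehicle on the counts of all genes of its table, using edgeR 4.0.16 in R 4.3.3 with filterByExpr, TMM, glmQLFit and glmQLFTest, Benjamini-Hochberg adjustment over all genes tested and a threshold of 0.05. The SE came from the F statistic and intervals are 95%. Drugs were compared with each other, and all 4 groups at once, in a fit of all 12 libraries. Overlap of groups was read on the TMM-normalised CPM of each fit. Log2 CPM of the 12 libraries (TMM, prior count 2) gave the correlations, with two-sided p from 100000 permutations over all 12 libraries without regard to group. Rats are the replicates, with no statement on cages or litters. Depth of 16106337 to 20096877 reads gave each of the 10 genes at least 175 reads in every library, so spread between rats, not counting error, limits these comparisons.

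The 10 genes, the 5 process lists and 11 marker lists were chosen with earlier results of these data known. Named besides the 10 are up to 2 genes per process list and comparison with the smallest edgeR p under 0.05, the first 3 measured markers of a list where used, and the 3 genes most like Eln, Lox and Postn. Elane is named only for its place in 2 lists. Promoters are from RefSeq (GRCr8). Alternatives were RLE or library totals, no filter or at least 10 counts in every library, DESeq2 1.42.0, limma 3.58.1 on log2(FPKM + 1) or log2(FPKM + 0.1) of genes with a mean of at least 1 FPKM, all 12 libraries in a fit, a gene length trend (lowess, span 0.3) removed, each library left out, and the animals numbered in the 960s left out or their series as a covariate. Bias-adjusted deviances, the alternatives for drug pairs and the reading of the series term were added after seeing the data. Scripts were tested on simulated data. Figures used matplotlib 3.10.9 in Python 3.11.15.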

Additional observations from a re-analysis of the deposited data

How the results depend on the processing

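No member of the 10 passed the adjusted threshold in any comparison with vehicle under any alternative; the lowest adjusted p was 0.0975. Of the 30 fold changes, 18 kept their sign throughout and 12 turned in at least 1 alternative, most of them near 0. No paired analysis was possible because the groups share no animal number.

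With AngII, library totals gave -0.061 for Loxl1, -0.050 for Postn and a median of -0.38 over the 10 genes; limma gave -0.0521 for Loxl1 and -0.0529 for Postn (-0.0523 and -0.0531 at the lower pseudocount), and Eln was 0.0435 with the gene length trend removed. With losartan, Fbln5 was -0.0163 with library totals and -0.00826 with limma (-0.00820 at the lower pseudocount). The series covariate gave Eln 0.10 with AngII, Fn1 -0.0491 with TRV023, and Eln -0.0178 and Fbln5 -0.0922 with losartan. Leaving out the 960s gave Eln 0.125 with AngII, Loxl1 0.0406 and Fn1 -0.0289 with TRV023, and Fbn1 0.0692, Loxl2 0.36, Postn 0.19 and a median of 0.0667 with losartan, where 1 losartan lung is left. The cause of these turns was not tested.

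Leaving out each replicate in turn gave ranges that crossed 0 for Eln (-0.21 to 0.125) and Loxl1 (-0.0638 to 0.19) with AngII. With TRV023 they crossed 0 for Lox (-0.0740 to 0.18), Loxl1 (-0.21 to 0.0406) and Fn1 (-0.0572 to 0.39). With losartan they crossed 0 for Eln (-0.0558 to 0.28), Fbln5 (-0.24 to 0.25), Lox (-0.24 to 0.37) and Postn (-0.20 to 0.0895).

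Genes called over the whole table depend strongly on the tool. AngII against vehicle called 2 genes, but 209 with DESeq2, 1 with library totals, the length trend removed, limma, all 12 libraries in a fit or the 960s left out, and 0 with the series covariate. TRV023 called 1 gene, but 114 with DESeq2, 2 with limma at a pseudocount of 0.1, 3 with the 960s left out and 0 with all 12 libraries in a fit. Losartan called 0 genes (250 at an unadjusted edgeR p under 0.05), but 7 with DESeq2 and 5 with the 960s left out. TRV023 against losartan called 1 with library totals. Without each replicate in turn the counts were 0 to 3 for AngII, 0 to 3 for TRV023 and 0 to 1 for losartan, 0 to 4 for any difference among the 4 groups (3 with all libraries), 0 to 1 for AngII against TRV023 and 0 to 1 for AngII against losartan.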
